A study of Homo sapiens with 6 samples.

Results

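Imprinted genes outside the insulin axis were examined in A375 human melanoma cells after RIPK4 knockout. The set was fixed by name and holds 10 genes, MEST, PEG3, PEG10, SGCE, PLAGL1, CDKN1C, NDN, SNRPN, H19 and MEG3. Of these, 7 had a row of their own among the 20851 gene rows of the count table, and 5 had enough reads to be tested. The libraries comprised 3 from A375RIPK4.KO cells, in which the gene for the kinase RIPK4 was disrupted with a lentivirally delivered sgRNA, and 3 from A375neg cells, the control line made with a non-targeting sgRNA and labelled as a GFP control. The A375RIPK4.KO cells profiled by RNA-seq came from a single clone, so that an effect of RIPK4 loss and a difference between that clone and the control cannot be told apart. The libraries of each group are described in the study as independent biological replicates.

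In genomic imprinting, only the copy of a gene inherited from one parent is transcribed, and the other is kept silent by DNA methylation or chromatin marks set in the germ line. Imprinted genes lie in clusters, each controlled by a differentially methylated region, and many act in fetal growth, the placenta and the brain. The read counts analysed here do not separate the parental alleles, so each value is the sum of both. Whether the set and the other listed genes are imprinted in these cells was not tested.

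RIPK4 itself was read at 319, 368 and 404 counts in A375neg and at 42, 51 and 61 counts in A375RIPK4.KO. Its log2 fold change was -2.69 (SE 0.166, n = 3 per group, edgeR quasi-likelihood test with Benjamini-Hochberg adjustment, adjusted p = 1.01e-05), in the direction of the labels. Libraries held 21882863 to 26694140 counts. A375RIPK4.KO replicate 2 stood apart from the other libraries of its group, with a chi-square per gene of 20.96 to 25.07 against them, compared with 6.52 to 9.15 for every other pair of libraries within a group. Of 9 melanocyte lineage markers 5 had a row, with summed normalised counts of 9436 to 10214 in A375neg and 8153 to 8565 in A375RIPK4.KO. SOX10 was not called (log2 fold change -0.20, edgeR adjusted p = 0.0507), MITF was lower by less than 1.5-fold (-0.44, edgeR adjusted p = 0.0449) and S100B was called lower (-0.89, edgeR adjusted p = 0.036). Of the pigment markers, PMEL was not called (-0.30, edgeR adjusted p = 0.794) and TYRP1 was at 1 to 8 counts. MLANA, TYR, DCT and PRAME have no row of their own in the table used here. A copy row of PRAME was not called (-1.35, edgeR adjusted p = 0.235). The keratinocyte marker KRT14 was called lower as well (-1.75, edgeR adjusted p = 3.46e-05). KRT10, another keratinocyte marker, was not called (-0.0055, edgeR adjusted p = 0.976), KRT5 was at 2 to 11 counts and KRT1 had no row. Among epithelial markers, KRT8 was lower by less than 1.5-fold (-0.35, edgeR adjusted p = 0.0218) and KRT18 was not called (0.08, edgeR adjusted p = 0.577). The summed normalised counts of 3 endothelial markers were 32 to 36 in A375neg and 6.08 to 12 in A375RIPK4.KO, and their defining gene PECAM1 was called lower (log2 fold change -2.12, edgeR adjusted p = 0.00556). VWF was at 0 to 5 counts and CDH5 at 0 to 14 counts, too few to test. Of 3 fibroblast markers with a row, LUM (-1.38, edgeR adjusted p = 0.0552) and PDGFRA (0.27, edgeR adjusted p = 0.374) were not called and DCN was at 4 to 28 counts. Of 3 leukocyte markers with a row, LYZ was called lower (-2.62, edgeR adjusted p = 0.0382), CD68 was not called (0.14, edgeR adjusted p = 0.259) and the defining gene PTPRC was at 0 to 3 counts. Whether these have a part in the results below was not tested.

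A gene was called higher or lower when its adjusted p was under 0.05 and its change was at least 1.5-fold. By this rule 3 of the 5 tested imprinted genes were called, SGCE and PLAGL1 higher and MEST lower in A375RIPK4.KO, against a background of 9.04% of the 14443 genes tested (4.39% higher and 4.65% lower). With no limit on the fold the same count of 3 passed, against 16.6% of all tested genes, and with no filter on low counts 3 were called against 6.28% of all 20851 rows. The median log2 fold change of the 5 was 0.35, compared with -0.0047 over all tested genes. PEG10 and SNRPN did not pass. All 5 are known as paternally expressed, and the changes among them ran in both directions. The set and the lists below were chosen with earlier results of these data known. Their shares of called genes are therefore descriptive and do not test whether imprinted genes changed more often than others.

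**Figure D1:**
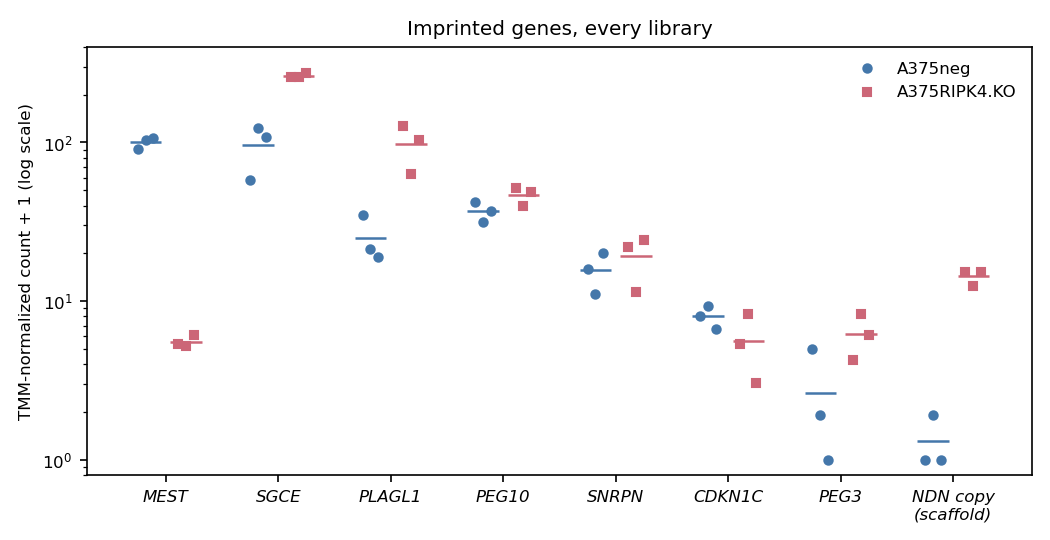
TMM-normalised counts plus 1 (log axis) of the imprinted genes in every library, with A375neg as circles, A375RIPK4.KO as squares and group means as horizontal bars. MEST fell from a mean of 99.2 to 4.54 and SGCE rose from 95.8 to 262 without overlap of the groups, whereas the groups of PEG10 and SNRPN overlapped.

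MEST encodes a protein of the alpha/beta hydrolase fold that is expressed in mesoderm and adipose tissue. It was read at 90, 111 and 111 counts in A375neg and at 4, 4 and 5 counts in A375RIPK4.KO. Every knockout library was far below every control library, and replicates within each group differed little. The log2 fold change was -4.41 (SE 0.271, 95% interval -5.02 to -3.80, edgeR adjusted p = 9.56e-06), a level 21.3-fold lower. Across all alternative settings the log2 fold change of MEST lay between -4.50 and -4.35.

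MEST (chr7:130486175-130506465, plus strand) is transcribed from several starts, and its imprinted transcript is known to begin at a downstream CpG-rich promoter. The promoter windows of its most upstream and most downstream starts are shown because MEST moved most among the set; they are RefSeq sequences of GRCh38.p14, from 250 bases before to 50 bases after the start. Capitals mark TGCCGC and its reverse complement GCGGCA, the hexamer that the imprint-keeping zinc finger protein ZFP57 is known to bind when methylated.
MEST upstream, chr7:130485925-130486224, plus strand: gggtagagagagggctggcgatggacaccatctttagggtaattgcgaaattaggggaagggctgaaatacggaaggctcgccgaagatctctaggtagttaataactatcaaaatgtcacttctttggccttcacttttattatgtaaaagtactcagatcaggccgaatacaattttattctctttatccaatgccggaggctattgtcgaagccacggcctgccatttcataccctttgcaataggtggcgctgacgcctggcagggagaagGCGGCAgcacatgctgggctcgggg
MEST downstream, chr7:130491835-130492134, plus strand: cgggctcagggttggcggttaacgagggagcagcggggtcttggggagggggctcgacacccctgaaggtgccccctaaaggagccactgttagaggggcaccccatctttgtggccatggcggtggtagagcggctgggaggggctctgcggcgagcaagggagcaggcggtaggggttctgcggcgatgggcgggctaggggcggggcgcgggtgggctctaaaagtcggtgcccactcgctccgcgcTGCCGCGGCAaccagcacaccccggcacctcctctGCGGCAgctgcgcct
The upstream window held 13 CG dinucleotides and 1 hexamer match, and the downstream window held 25 CG dinucleotides and 3 matches, of which 1 pair overlapped on opposite strands. The hexamer was present on either strand in 16.7% of the 35116 promoter windows of this length, and the median window held 14 CG dinucleotides. The counts are per gene and do not show which start was used.

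Of 3 tested partner genes in the 7q32 domain around MEST, KLF14 and CPA4 were called lower, against 4.65% of all tested genes. KLF14, a maternally expressed transcription factor of the Krüppel-like family, was read at 95, 121 and 143 counts in A375neg and at 25, 23 and 21 counts in A375RIPK4.KO (log2 fold change -2.23, SE 0.233, edgeR adjusted p = 0.000226). CPA4, a carboxypeptidase gene, fell from 198, 227 and 227 counts to 108, 64 and 97 counts (log2 fold change -1.14, SE 0.209, edgeR adjusted p = 0.00559). COPG2, a coatomer subunit gene whose end overlaps that of MEST on the opposite strand, had a log2 fold change of -0.28 (SE 0.0844, edgeR adjusted p = 0.0548). It was not called, and its groups did not overlap, which held for 36.5% of all tested genes. The uncharacterised LOC105375508, which starts beside KLF14 on the opposite strand, was at 26, 41 and 29 counts in A375neg and at 7 counts in each A375RIPK4.KO library (log2 fold change -2.03, edgeR adjusted p = 0.00399). In contrast, CEP41, the nearest tested gene on the other side of MEST, stood at 0.19 (SE 0.0903, edgeR adjusted p = 0.206). Within 500 kb of the start of MEST, a window chosen after the values were seen, 3 of 8 other tested genes were called and all 3 were lower, where 4.65% of all tested genes were called lower.

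**Figure D2:**
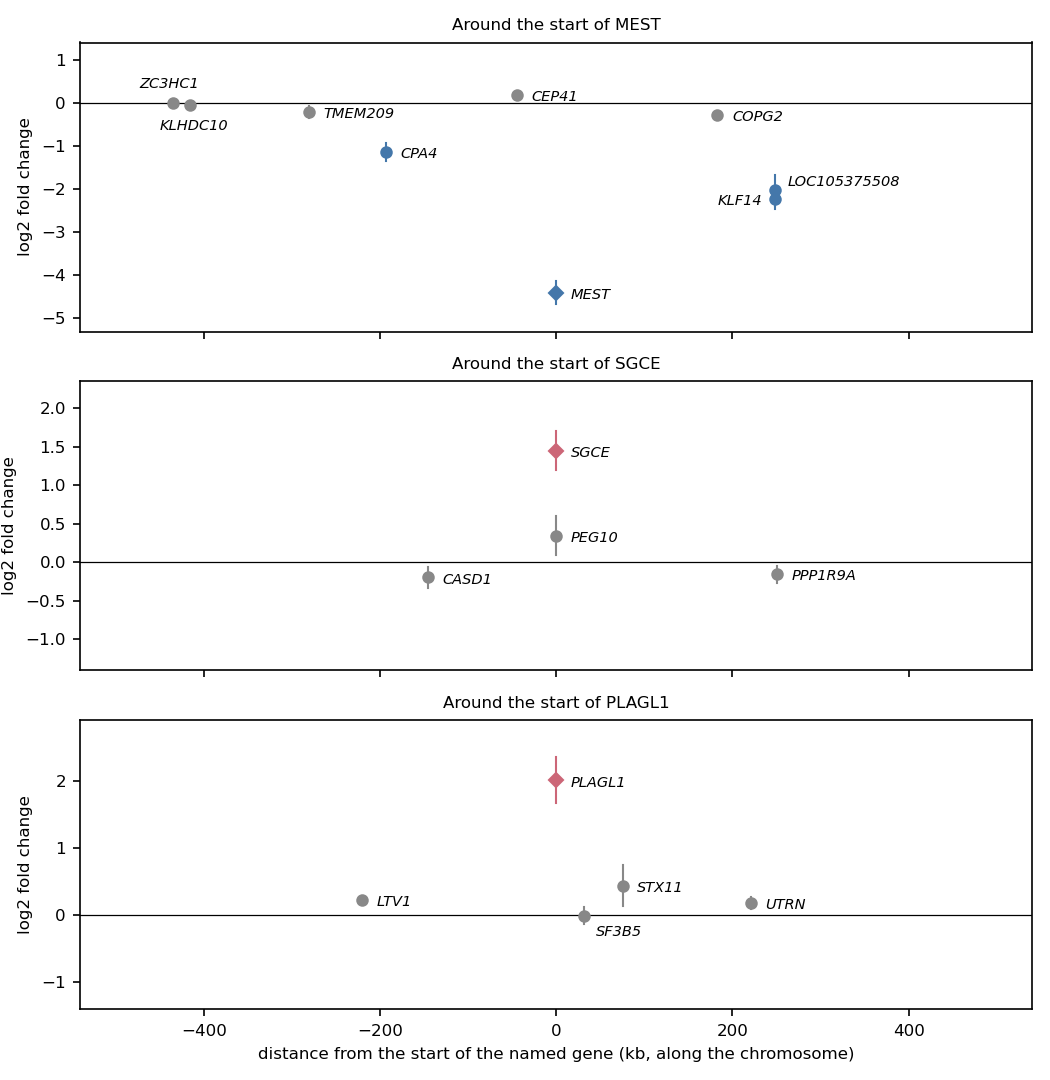
log2 fold change (A375RIPK4.KO over A375neg, bars 1 SE) of tested genes within 500 kb of the starts of MEST, SGCE and PLAGL1, against distance in kb, with called genes coloured, others grey and the named gene as a diamond. KLF14, LOC105375508 and CPA4 were lower with MEST, whereas no gene other than SGCE or PLAGL1 was called in the other panels.

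SGCE encodes epsilon-sarcoglycan, a membrane glycoprotein whose loss on the paternal copy causes myoclonus-dystonia. It was read at 57, 134 and 113 counts in A375neg and at 237, 245 and 268 counts in A375RIPK4.KO. All knockout libraries exceeded all controls, and the first control library was well below the other two. SGCE rose with a log2 fold change of 1.45 (SE 0.251, 95% interval 0.88 to 2.02, edgeR adjusted p = 0.00402), which is 2.73-fold. Without A375neg replicate 1 it remained called, at 1.18.

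PEG10, a retrotransposon-derived gene with roles in the placenta, is transcribed away from SGCE, and their starts lie 0.192 kb apart at 7q21 (SGCE at chr7:94584980-94656133 on the minus strand, PEG10 at chr7:94656325-94669695 on the plus strand). PEG10 was read at 41, 33 and 38 counts in A375neg and at 46, 37 and 47 counts in A375RIPK4.KO, and the groups overlapped. Its log2 fold change was 0.35 (SE 0.249, 95% interval -0.22 to 0.91, edgeR adjusted p = 0.397). The intervals of the neighbouring genes thus just overlapped. The ratio of SGCE to PEG10 counts within a library, from which depth drops out, was 1.39, 4.06 and 2.97 in A375neg and 5.15, 6.62 and 5.70 in A375RIPK4.KO. The ratio was higher in all 3 knockout libraries, by 1.18 on the log2 scale (exact two-sided permutation p = 0.1, the smallest that 3 against 3 libraries allow). It was not among the planned comparisons and follows from the counts given above, so it adds no separate evidence.

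Further genes of the 7q21 domain were not called. CASD1 had a log2 fold change of -0.19, PPP1R9A of -0.15 and PON2 of 0.01, and TFPI2, a protease inhibitor gene, passed the adjusted p (0.00509, edgeR) at a log2 fold change of only -0.34. BET1 and PDK4 were the nearest tested genes outside the lists, at 581 kb and 927 kb from SGCE. BET1 stood at -0.17, and PDK4, a mitochondrial kinase that restrains pyruvate oxidation, was called lower at -1.20 (SE 0.311, edgeR adjusted p = 0.0288) from 126, 109 and 147 to 26, 67 and 59 counts.

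PLAGL1 encodes a zinc finger transcription factor that restrains proliferation, and it is overexpressed in transient neonatal diabetes. It was read at 34, 22 and 19 counts in A375neg and at 115, 60 and 102 counts in A375RIPK4.KO. The groups did not overlap, and the lowest knockout library was replicate 2, the one that stood apart. PLAGL1 rose with a log2 fold change of 2.01 (SE 0.344, 95% interval 1.23 to 2.79, edgeR adjusted p = 0.00375), which is 4.03-fold, and without A375RIPK4.KO replicate 2 its log2 fold change was 2.25.

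PLAGL1 (chr6:143940300-144064599, minus strand) also has several starts. The most upstream is known to be used from both parental copies, and a downstream CpG-rich start is the imprinted one. Both RefSeq windows are shown for comparison with MEST, with the same hexamer in capitals.
PLAGL1 upstream, chr6:144064550-144064849, minus strand: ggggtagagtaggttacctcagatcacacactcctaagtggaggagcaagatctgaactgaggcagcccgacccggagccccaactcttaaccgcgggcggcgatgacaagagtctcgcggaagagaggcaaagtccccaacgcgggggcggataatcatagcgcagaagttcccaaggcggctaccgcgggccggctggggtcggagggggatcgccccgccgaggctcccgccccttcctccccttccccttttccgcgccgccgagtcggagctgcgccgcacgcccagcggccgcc
PLAGL1 downstream, chr6:144008210-144008509, minus strand: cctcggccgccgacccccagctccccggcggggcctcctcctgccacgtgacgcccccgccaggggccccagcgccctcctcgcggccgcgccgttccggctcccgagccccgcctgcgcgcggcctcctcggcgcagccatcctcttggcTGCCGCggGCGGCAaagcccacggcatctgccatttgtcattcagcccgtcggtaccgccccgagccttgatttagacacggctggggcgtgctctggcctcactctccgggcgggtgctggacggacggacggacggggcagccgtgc
The upstream window held 31 CG dinucleotides and no hexamer match, and the downstream one held 39 CG dinucleotides and 2 matches, 1 on each strand. The noncoding RNA HYMAI begins at the same base as the downstream start, position 144008259, and was read at 2, 5 and 0 counts in A375neg and at 0, 2 and 1 counts in A375RIPK4.KO, too few to test. Neither neighbour of PLAGL1 was called, LTV1 standing at 0.23 (SE 0.0595, edgeR adjusted p = 0.0304) and SF3B5 at -0.0043 (SE 0.127, edgeR adjusted p = 0.985).

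SNRPN encodes a protein of the small nuclear ribonucleoprotein particles and lies in the Prader-Willi region at 15q11-q13. It was read at 15, 11 and 20 counts in A375neg and at 19, 10 and 23 counts in A375RIPK4.KO, with full overlap (log2 fold change 0.31, SE 0.428, 95% interval -0.66 to 1.27, edgeR adjusted p = 0.679). The interval is wide, since the gene had at most 23 counts in a library. SNRPN overlaps SNURF and the long host transcript SNHG14 on the same strand, and how reads in shared exons were assigned is not given in the sources used here.

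None of the 7 tested partner genes of 15q11-q13 was called. SNHG14 was at 1034, 1125 and 1006 counts against 1248, 964 and 1382 counts (log2 fold change 0.32, edgeR adjusted p = 0.107). IPW stood at 0.37, PWAR6 at 0.48, PWAR5 at 0.31 and SNURF at 0.19, each short of the threshold. Without A375RIPK4.KO replicate 2, the library that stood apart, PWAR6 was called higher at 0.67 (edgeR adjusted p = 0.0454), and SNHG14 at 0.46 (edgeR adjusted p = 0.000717) and IPW at 0.52 (edgeR adjusted p = 0.0163) passed the adjusted p but not the fold limit. UBE3A, the ubiquitin ligase gene lost in Angelman syndrome, had a log2 fold change of 0.25 (edgeR adjusted p = 0.0147) and ATP10A one of -0.41 (edgeR adjusted p = 0.0371), both under 1.5-fold. Of the nearest tested genes outside the lists, SNORD116-21, 110 kb from SNRPN, stood at -0.43 (edgeR adjusted p = 0.586). CYFIP1, 1843 kb from SNRPN, was too uneven within groups to read, at 137, 36 and 605 against 27, 212 and 27 counts.

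NDN, which encodes the MAGE family protein necdin and is also silenced in Prader-Willi syndrome, has no row under its own symbol in the table used here. A row named as a copy of NDN, on a scaffold outside the main chromosomes, was at 0, 1 and 0 counts in A375neg and at 13, 11 and 14 counts in A375RIPK4.KO. All knockout libraries were above all controls. The ratio of summed counts per depth was 41.7, with a 95% counting interval of 7.05 to 1692 because the controls held a single count. That interval pools the reads of each group and leaves out variation between libraries. This copy row was called higher (log2 fold change 4.92, SE 0.854, 95% interval 2.99 to 6.85, edgeR adjusted p = 0.00404). The row passed the filter on low counts only through the knockout libraries, where it is high, so its call is descriptive. It is not counted among the set because it does not carry the symbol itself. MKRN3, a neighbour of NDN, was at 0, 1 and 0 counts against 5, 0 and 4 counts, and its own copy row on the scaffold was at 1, 3 and 2 against 0, 2 and 4 counts. The promoter window of NDN on the main chromosome is printed so that it can be compared with those of the genes above.
NDN, chr15:23687256-23687555, minus strand: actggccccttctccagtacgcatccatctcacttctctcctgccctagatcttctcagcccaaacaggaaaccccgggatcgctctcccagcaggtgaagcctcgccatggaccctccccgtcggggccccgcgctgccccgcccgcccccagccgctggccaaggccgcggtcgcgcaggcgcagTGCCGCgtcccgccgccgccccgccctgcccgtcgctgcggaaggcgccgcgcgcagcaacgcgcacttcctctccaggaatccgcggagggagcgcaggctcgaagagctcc
It held 35 CG dinucleotides and 1 hexamer match.

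Of the remaining members, CDKN1C and PEG3 were read but fell below the level needed for testing. CDKN1C, a maternally expressed inhibitor of cyclin-dependent kinases at 11p15.5 (chr11:2883218-2885775), was at 7, 9 and 6 counts in A375neg and at 4, 7 and 2 counts in A375RIPK4.KO. A row named as its copy was at 3, 1 and 0 against 0, 1 and 0 counts. PEG3, a zinc finger gene at 19q13.4 (chr19:56810082-56840726), was at 4, 1 and 0 counts against 3, 7 and 5 counts. The groups overlapped for both genes. With no filter on low counts their edgeR adjusted p-values were 0.658 and 0.404, and differences in them were not detectable at these counts. H19 and MEG3, the maternally expressed long noncoding RNAs of 11p15.5 and 14q32, have no row in the table used here and were not analysed. The smallest total of any listed row was 4 counts over the 6 libraries.

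Expressed per kb of exon, MEST was the highest of the set in A375neg, at 20.7 ± 1.68 normalised counts per kb (SD, n = 3). PEG10 (5.35 ± 0.792), SGCE (4.59 ± 1.66) and SNRPN (4.30 ± 1.29) followed within their spread, and CDKN1C (2.82 ± 0.525) and PLAGL1 (2.76 ± 0.991) were close to each other. In A375RIPK4.KO, SGCE (12.6 ± 0.404) and PLAGL1 (11.1 ± 3.66) led and did not differ beyond their spread, and MEST was near the bottom at 0.947 ± 0.098. The exon length is the union over all annotated isoforms, so the level of a gene with many isoforms such as SGCE is understated.

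**Figure D3:**
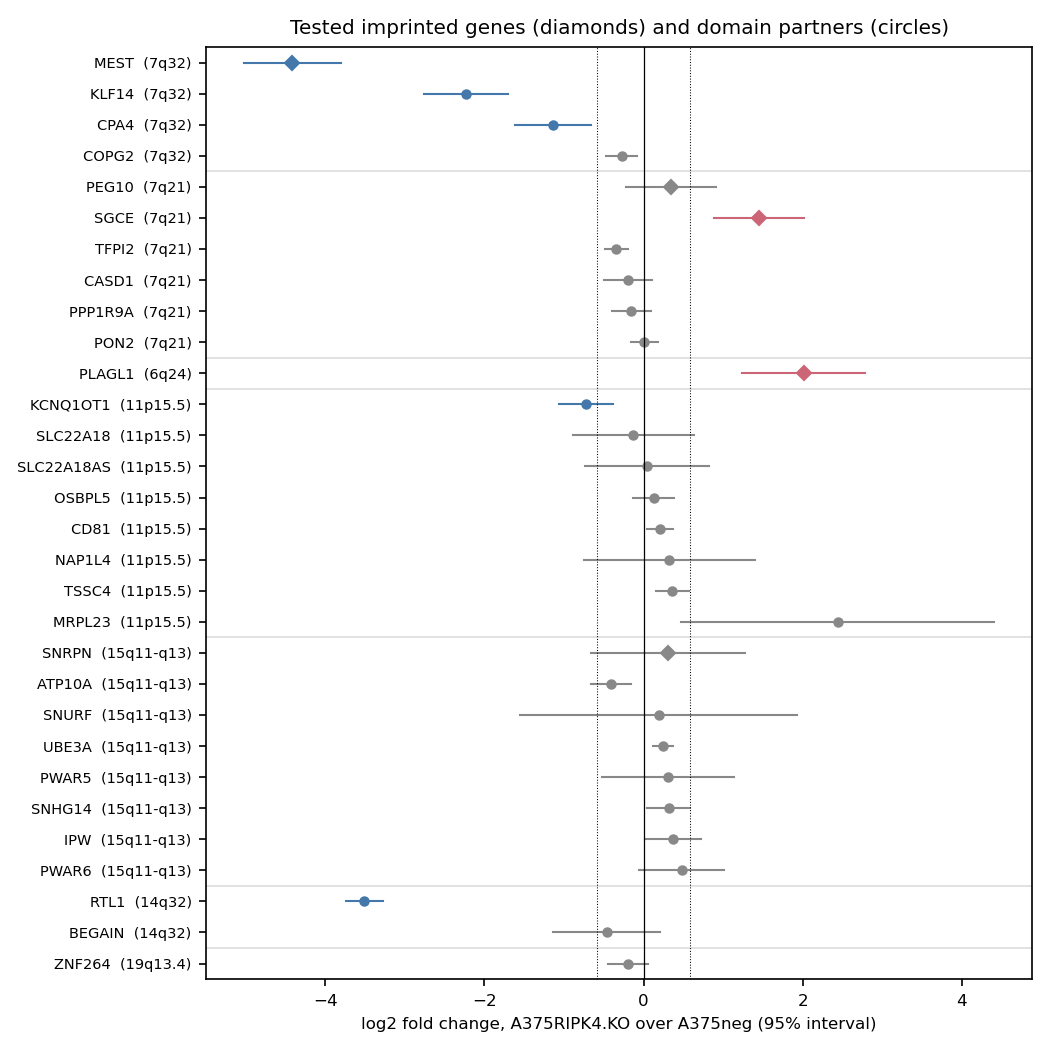
log2 fold change (A375RIPK4.KO over A375neg) with 95% intervals for the tested imprinted genes (diamonds) and the other tested genes of their domains (circles), grouped by domain. Red marks genes called higher, blue those called lower, and dotted lines a 1.5-fold change. Calls among the partners were all lower and lay in 7q32, 11p15.5 and 14q32.

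Across all domains, 25 of 55 listed partner genes were tested and 4 were called, all lower, which is 16% against the background of 9.04%. The median log2 fold change of the 25 was 0.01. Besides KLF14 and CPA4, these were RTL1 and KCNQ1OT1.

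RTL1, a retrotransposon-derived and paternally expressed gene of the 14q32 domain that holds MEG3, was read at 753, 810 and 780 counts in A375neg and at 64, 60 and 63 counts in A375RIPK4.KO. Replicates were tight and the groups lay far apart. Its log2 fold change was -3.51 (SE 0.102, edgeR adjusted p = 1.18e-07), a level 11.4-fold lower. Of the same domain, BEGAIN stood at -0.46 (edgeR adjusted p = 0.344), MEG8 was at 0 to 3 counts in every library, and MEG9 was at 5, 3 and 9 against 2, 0 and 0 counts.

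KCNQ1OT1, the paternally expressed noncoding RNA that silences the CDKN1C domain, fell from 192, 208 and 183 to 110, 97 and 115 counts (log2 fold change -0.72, SE 0.151, edgeR adjusted p = 0.011). The call was lost without A375neg replicate 2 (edgeR adjusted p = 0.0514). Another 7 tested genes of 11p15.5 were not called, among them CD81 (0.21), TSSC4 (0.36), OSBPL5 (0.13), SLC22A18 (-0.13) and SLC22A18AS (0.05). NAP1L4 (0.32) and MRPL23 (2.44) were uneven within groups, MRPL23 reaching 174 counts in A375RIPK4.KO replicate 2 against 10 to 24 counts in the other libraries. ZNF264, the only tested partner of PEG3 at 19q13.4, stood at -0.20.

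Of 46 listed symbols of imprinted genes elsewhere in the genome, 28 were tested. Some listed symbols are an older and a newer name of the same gene, such as WRB and GET1. Calls were made for 3, 1 higher and 2 lower, or 10.7% against the background of 9.04%. FAM50B, a paternally expressed retrogene, rose from 9, 19 and 30 to 66, 73 and 66 counts (log2 fold change 1.96, SE 0.364, edgeR adjusted p = 0.00584). ANO1, a calcium-activated chloride channel gene, fell from 1164, 1340 and 1328 to 356, 401 and 351 counts (log2 fold change -1.65, SE 0.0835, edgeR adjusted p = 3.42e-06). The noncoding PAX8-AS1 fell by 0.59 on the log2 scale (edgeR adjusted p = 0.0175), at the edge of the fold limit, and lost its call under several settings. The 5 most abundant uncalled genes, GNAS, HM13, INPP5F, RB1 and CRYBG1, had log2 fold changes of 0.06, 0.03, -0.11, 0.11 and -0.04.

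Factors that set or keep imprints, together with the 5-methylcytosine oxidases TET1, TET2 and TET3, were examined as a separate list. Of these, 15 of 25 were tested and 3 were called, all lower (20% against the background of 9.04%). The 3 do not share 1 function. DNMT3B, a de novo DNA methyltransferase, fell from 188, 188 and 178 to 100, 112 and 99 counts (log2 fold change -0.70, SE 0.151, edgeR adjusted p = 0.0127). TET1, which oxidises 5-methylcytosine, fell from 146, 182 and 176 to 102, 72 and 102 counts (log2 fold change -0.73, SE 0.190, edgeR adjusted p = 0.0301). UHRF1, which recruits the maintenance methyltransferase to replicated DNA, fell from 2567, 2802 and 2908 to 1693, 1057 and 2041 counts (log2 fold change -0.65, SE 0.187, edgeR adjusted p = 0.0434), lowest in replicate 2. With 1 library left out in turn, the calls of TET1 and UHRF1 were each lost in 5 of 6 fits and that of DNMT3B in 2 of 6, so that none was left without A375neg replicate 1. Without A375RIPK4.KO replicate 2, UHRF1 stood at -0.42 and passed the adjusted p (0.00101, edgeR) but not the fold limit. The maintenance methyltransferase DNMT1 stood at -0.02, CTCF at 0.07, ARID4B at -0.02 and HELLS at -0.03, and TRIM28, the corepressor partner of ZFP57, at 0.24 (edgeR adjusted p = 0.0448, under 1.5-fold). ZFP57 has no row in the table used here.

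**Figure D4:**
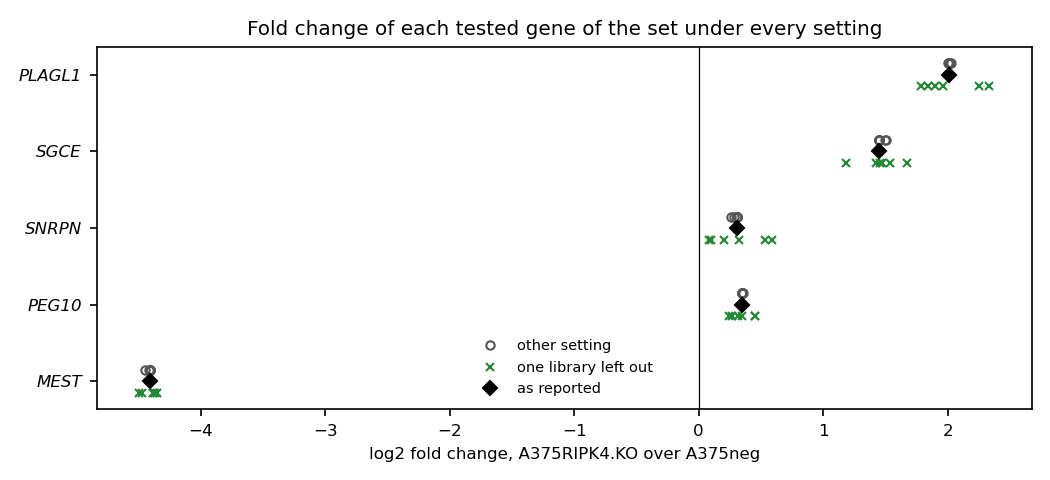
log2 fold change (A375RIPK4.KO over A375neg) of each tested gene of the set as reported (diamonds), with 1 library left out (crosses) and under the other settings (circles). MEST stayed between -4.50 and -4.35, SGCE between 1.18 and 1.67 and PLAGL1 between 1.79 and 2.34.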

How the data were processed

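Raw read counts per gene, deposited by the authors for 6 libraries of A375 cells, were the only values used. Poly(A)-selected, strand-specific libraries were sequenced as read pairs, and the submitters' processing notes name cutadapt, FastQC, HISAT2, HTSeq and DESeq2 with GRCh38.p13; their settings and versions are not given in the sources used here. The authors' own fold changes, p-values and normalised counts stand in the same table and were not used. Counts were fitted with edgeR 4.0.16 (R 4.3.3; TMM, filterByExpr, glmQLFit and glmQLFTest) for A375RIPK4.KO against A375neg, with Benjamini-Hochberg adjustment over all 14443 genes tested and no covariate. Scripts were tested on simulated data. DESeq2 1.42.0 and other settings served as alternatives. Gene positions are RefSeq (GRCh38.p14) and exon lengths GENCODE, matched by symbol. Of the set, 6 genes had RefSeq promoter windows. Of the rows, 904 are named as copies of a gene. The members and the lists were chosen with earlier results of these data known. Named genes were the set, RIPK4, every tested domain partner, called genes and up to 5 further abundant genes of both other lists, and the nearest tested unlisted genes on each side. HYMAI, MKRN3, MEG8, MEG9, the copy row of CDKN1C and the genes of the closing observations were named after their values were seen. RefSeq matches were 19047 by name and 223 by an older symbol.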

Additional observations from a re-analysis of the deposited data

How the results depend on the processing

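The 3 calls within the set, of MEST, SGCE and PLAGL1, were kept under every alternative run, and the count of 3 became 4 only when copies of a gene were summed, an alternative chosen after seeing the data, through which the NDN copy enters. PEG10 and SNRPN kept their direction and stayed uncalled in every alternative that tested them, which a mean of at least 50 counts did not. Leaving out 1 library gave 3 to 5 called domain partners and 2 to 5 called other imprinted genes (5 without A375RIPK4.KO replicate 1). In the list of imprint factors and TET genes it gave 0 to 2 calls (0 without A375neg replicate 1). With no limit on the fold, 8 of 25 domain partners and 5 of 28 other imprinted genes passed, against 16.6% of all tested genes. Over the libraries left out, the log2 fold change ranged from -0.057 to 0.056 for PON2, -0.24 to 0.28 for SLC22A18AS, -0.50 to 0.68 for NAP1L4, -0.33 to 0.62 for SNURF and -0.094 to 0.65 for PWAR5, none of them called, and with copies summed SLC22A18AS stood at -0.044. The cause was not tested. UHRF1 lost its call with DESeq2 (adjusted p = 0.0856), and MRPL23 gained one (adjusted p = 0.00796). No pairing of the libraries by replicate number was detected over all tested genes. Correlations of deviations were 0.082, 0.036 and -0.012 at equal number and -0.096 to 0.067 at unequal number. These values cannot show that the libraries were handled separately. A replicate block left 3 calls in the set, with MEST at -4.41. The sum of PEG3 and ZIM2 could not be run because ZIM2 has no row in the table used here. Genes under about 10 counts, such as CDKN1C and PEG3, had too few reads to test, and the cause was not tested. The counts of CDKN1C leave out those of its copy row. How reads that match both a gene and its copy were counted is not given in the sources used here.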

Other observations

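The retrotransposon-derived RTL family to which RTL1 belongs was looked at after its value was seen. Of 9 listed genes 8 passed the filter on low counts, and of these RTL1 alone was called by edgeR, or 12.5% against 9.04% of all tested genes. RTL3, an X-linked relative, was at 18, 13 and 10 counts in A375neg and at 0 counts in each A375RIPK4.KO library, a level at least 4.17-fold lower when the knockout group is set to a floor of 3 counts per library. It was below the filter, but passed in edgeR with no filter (adjusted p = 0.00417) and in DESeq2 (adjusted p = 0.000564). RTL9 was at 43, 55 and 41 against 26, 21 and 23 counts (log2 fold change -0.85, SE 0.262, edgeR adjusted p = 0.057) and RTL8A stood at -0.44 (edgeR adjusted p = 0.00974, under 1.5-fold), whereas RTL6 stood at -0.0019 and RTL8C at 0.03.

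Several genes of 11p15.5 have a second row on a scaffold, and counts differed widely between libraries of the same group in some of them. The copy of NAP1L4 was at 11, 9 and 448 counts in A375neg. As normalised counts it was at 11, 8.29 and 425 in A375neg and at 12, 10.4 and 380 in A375RIPK4.KO. This copy row was thus highest in replicate 3 of both groups. NAP1L4 itself was at 222, 529 and 325 against 261, 762 and 192 counts, highest in replicate 2 of both groups. Whether the replicate number has a part in these 2 rows was not tested. The copy of PHLDA2 was at 15, 12 and 8 against 11, 16 and 10 counts and was not called (log2 fold change 0.21, edgeR adjusted p = 0.794), while PHLDA2 itself was at 0 to 3 counts. The copy of SLC22A18 was at 11, 34 and 20 against 5, 17 and 31 counts and was not called (log2 fold change -0.16, edgeR adjusted p = 0.883).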
